A study of Homo sapiens with 8 samples.

Results

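Kinesins are the motor proteins that walk along or take apart microtubules, and the genes of this superfamily were followed in a pair of human cell lines from T cell acute lymphoblastic leukaemia (T-ALL) after knockdown of TOX, an HMG-box transcription factor of T cell development. Members were all genes whose symbol is KIF or KIFC followed by a family number and letter; they numbered 42 of the 14884 genes that the arrays measured under a single symbol. CENPE, also a kinesin, has another kind of name and is counted below among the mitotic partners. KIF28P, a pseudogene in the RefSeq annotation, was not analysed here. The 8 Affymetrix arrays cover CCRF-CEM and HPB-ALL cells. Each line has 1 array of cells with the short hairpin RNA (shRNA) shTOX-1, 1 with the hairpin shTOX-2, 1 with a scramble shRNA and 1 of untransduced cells. Cells with any of the 3 constructs, here called transduced, had been spun with virus, put under puromycin and kept for 2 weeks or more, so the scramble cells share all of this with the shTOX cells. Virus, drug and waiting time cannot be told apart in a comparison with the untransduced cells. The labels name neither a vector nor a promoter for the hairpins, and with 1 array per construct and line, the 2 arrays of a shTOX group are different hairpins rather than repeats of the same hairpin.

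Kinesins share a motor domain that turns ATP hydrolysis into movement along microtubules. Mitotic members build and shorten the spindle, move chromosomes and finish cytokinesis, and in dividing cells their transcripts accumulate towards mitosis along with those of cyclin B and the mitotic kinases. Transport members carry vesicles, mitochondria and other cargo through the resting as well as the dividing cell, and further members work in cilia or tune microtubule growth. Cell cycle genes of the mitotic kind are known to carry a CCAAT box, which NF-Y binds, close to a cell cycle genes homology region (CHR), through which the DREAM complex represses them in resting cells and a B-MYB and FOXM1 complex activates them before mitosis.

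The deposited values are log2 intensities, and every level below is on that scale. A gene was tested if its mean over the 8 arrays reached 5.18, the 40th percentile of gene means; 8930 genes were, among them 32 of the 42 kinesins. Differences are log2 differences from limma with their standard error (SE), and calls rest on p-values adjusted over the 8930 genes after Benjamini and Hochberg, with a threshold of 0.05. Nothing in the labels says that arrays came from separate cultures, so p-values here speak only of the spread among these arrays, which may in part be technical. With 1 array per construct and line, that spread also holds construct differences between lines and, in some fits, those between hairpins or controls. The level of TOX, the target of the hairpins, was 10.65 (shTOX-1) and 9.86 (shTOX-2) in CCRF-CEM, against 11.03 in scramble and 11.03 in untransduced cells. In HPB-ALL it was 10.16 (shTOX-1) and 8.75 (shTOX-2), against 10.59 in scramble and 10.64 in untransduced cells. TOX was thus lowest with shTOX-2 in both lines, and its mean difference between 4 shTOX and 4 control arrays, -0.96 ± 0.28, was not called (adjusted p = 0.292). Of 17 measured T lineage markers, 16 passed the filter, but CD1A, CD1B, CD1E and RAG1 did so through CCRF-CEM alone, all their HPB-ALL levels being below 5.18; CD1A was between 3.66 and 4.82 in the HPB-ALL arrays. TLX3, the homeobox gene known to be activated in HPB-ALL, was between 5.51 and 5.73 in CCRF-CEM arrays and between 5.48 and 5.74 in HPB-ALL arrays. NKX2-5, the one known to be activated in CCRF-CEM, was between 9.74 and 10.15 in CCRF-CEM arrays and between 8.84 and 9.61 in HPB-ALL arrays. These 2 genes were looked at after other values had been seen; TLX3 overlapped between the lines, NKX2-5 was well above the filter level in both, and the lines are named below as labelled.

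By role, 14 kinesins act in mitosis, 15 in cargo transport, 6 in cilia and 7 in microtubule dynamics or other work. The filter kept 13 mitotic, 9 transport, 5 cilium and 5 other members. The 10 below it were KIF2B, a mitotic depolymerase, the transport motors KIF1A, KIF5C, KIF13A, KIF16B, KIF17 and KIFC3, the cilium gene KIF6, and KIF25 and KIF26B. Their levels lay between 3.31 (KIF5C in CCRF-CEM cells with shTOX-1) and 5.41 (KIF2B in the same cells), and they were not tested. Only KIF1B, KIFC1 and KIF27 had more than 1 probe set; the brightest stood for each gene.

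The mitotic kinesins that differed most between transduced and untransduced cells are shown first by their promoters. Most of these stretches hold both elements named above, and the part of the elements in the differences was not tested. Each is the RefSeq sequence of GRCh38.p14 from 120 bases before to 30 bases after a start site, written 5′ to 3′ on the strand of the gene. Capitals mark the CHR (TTTGAA or TTCGAA) and the CCAAT box (CCAAT) on either strand, so that a CHR on the opposite strand reads TTCAAA or TTCGAA and a CCAAT box on the opposite strand reads ATTGG. KIF20A lies at chr5:138178992-138179141 on the + strand, KIF14 at chr1:200620722-200620871 on the − strand, and KIF18A at chr11:28108127-28108276 on the − strand. KIF4A lies at chrX:70289984-70290133 on the + strand, KIF11 at chr10:92593010-92593159 on the + strand and KIF23 at chr15:69414229-69414378 on the + strand.
KIF20A: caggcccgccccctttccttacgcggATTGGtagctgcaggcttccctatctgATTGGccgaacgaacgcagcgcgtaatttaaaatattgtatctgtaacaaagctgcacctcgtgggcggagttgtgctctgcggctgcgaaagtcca
KIF14: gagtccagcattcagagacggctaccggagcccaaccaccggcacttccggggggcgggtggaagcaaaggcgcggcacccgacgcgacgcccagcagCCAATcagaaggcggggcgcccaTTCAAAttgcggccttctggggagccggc
KIF18A: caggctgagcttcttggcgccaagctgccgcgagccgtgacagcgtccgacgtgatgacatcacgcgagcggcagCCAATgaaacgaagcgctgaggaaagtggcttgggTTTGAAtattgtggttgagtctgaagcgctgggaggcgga
KIF4A: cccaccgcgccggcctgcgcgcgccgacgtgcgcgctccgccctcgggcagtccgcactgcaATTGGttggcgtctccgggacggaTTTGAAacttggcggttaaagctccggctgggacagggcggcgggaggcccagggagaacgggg
KIF11: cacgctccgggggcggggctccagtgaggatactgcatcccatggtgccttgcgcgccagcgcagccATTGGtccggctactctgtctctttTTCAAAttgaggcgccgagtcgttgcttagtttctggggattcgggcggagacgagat
KIF23: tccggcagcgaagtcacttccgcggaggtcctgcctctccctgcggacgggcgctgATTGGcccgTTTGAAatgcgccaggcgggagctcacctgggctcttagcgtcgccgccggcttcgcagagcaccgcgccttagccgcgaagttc

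For comparison, the same stretch is given of KIF1C, the transport kinesin that differed most between shTOX and scramble arrays, and of KIF21A, which differed most between the lines. They lie at chr17:4997830-4997979 on the + strand and at chr12:39443091-39443240 on the − strand, and neither holds a capital.
KIF1C: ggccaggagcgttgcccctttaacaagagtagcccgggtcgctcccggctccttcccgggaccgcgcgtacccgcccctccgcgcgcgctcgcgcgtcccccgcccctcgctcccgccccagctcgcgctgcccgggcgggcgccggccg
KIF21A: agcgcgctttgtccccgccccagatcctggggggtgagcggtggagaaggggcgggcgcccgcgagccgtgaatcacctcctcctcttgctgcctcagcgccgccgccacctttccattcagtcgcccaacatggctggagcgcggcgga

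Promoter windows of 300 bases, from 250 before to 50 after the start, were searched for 34 of the 42 kinesins. A gene was counted if any of its windows held the element, since some genes have more than 1 start. A CHR was found for 11 of 14 mitotic kinesins and for 2 of 20 other kinesins, KIF24 and KIF5B, against 19.5% of all 27305 genes with a window. A CCAAT box was found for 11 of 14 mitotic and 7 of 20 other kinesins, against 39.7% of all genes. Both elements were found for 10 of 14 mitotic and 2 of 20 other kinesins, against 7.85% of all genes. The 2 others were again KIF24 and KIF5B, which were not called between transduced and untransduced cells. Of the 6 mitotic promoters printed, KIF20A alone holds CCAAT boxes without a CHR in the forms searched, TTTGAA and TTCGAA. No CHR in these forms was found in the windows of KIF2B and KIF2C either, and other forms were not searched. No element overlapped another in a kinesin window, and a match of these letters is a description of the window and no evidence of binding.

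Mitotic kinesins lay higher in all 3 transduced arrays of a line than in its untransduced array, in both lines. Of the 13 tested, 11 were called higher and none lower, and their median difference was 0.75, against 0.03 over all tested genes. Over all tested genes, 11% were called in this comparison, 5.97% higher and 5.05% lower. The role lists were drawn with earlier results of these data known, so the share called depends partly on how they were drawn. KIF2A, a depolymerase related to KIF2C but listed among other members, was not called. KIF4B counts as a call of its own, although its probes may read KIF4A transcript. Differences of the called mitotic members ran between 0.49 (KIF2C) and 1.32 (KIF20A), or 1.41-fold and 2.49-fold. In bulk RNA, fewer dividing cells and less of these transcripts per dividing cell cannot be told apart.

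KIF20A, which carries the chromosomal passenger complex to the central spindle, had levels of 9.79 (shTOX-1), 9.94 (shTOX-2) and 9.66 with scramble in CCRF-CEM, against 8.47 in untransduced CCRF-CEM. In HPB-ALL its levels were 9.56 (shTOX-1), 9.68 (shTOX-2) and 9.52 with scramble, against 8.28 in untransduced HPB-ALL. The 3 transduced arrays of a line lay close together and well above the untransduced one, and the difference was 1.32 ± 0.12 (adjusted p = 0.00113), the fourth smallest p of all tested genes. KIF14, a cytokinesis motor that binds PRC1 and citron kinase, had 9.35 (shTOX-1), 9.49 (shTOX-2) and 9.49 (scramble) in transduced CCRF-CEM, against 8.42 untransduced. Its HPB-ALL levels were 9.83, 9.80 and 9.60 in the same order, against 8.73 untransduced, and the groups did not overlap in either line. Its difference was 1.02 ± 0.12, or 2.03-fold (adjusted p = 0.00256). KIF18A, which damps the swinging of chromosomes on the spindle, had 8.93, 9.22 and 9.03 in transduced CCRF-CEM (shTOX-1, shTOX-2, scramble), against 8.0 untransduced. In HPB-ALL the same constructs gave 9.19, 9.30 and 9.0, against 8.15 untransduced, again without overlap. KIF18A differed by 1.04 ± 0.13, or 2.05-fold (adjusted p = 0.00299).

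KIF4A, a chromokinesin that limits the length of midzone microtubules together with PRC1, had 9.49 (shTOX-1), 9.54 (shTOX-2) and 9.33 (scramble) in CCRF-CEM, against 8.44 untransduced. HPB-ALL cells had 9.27, 9.39 and 8.96, against 8.29 untransduced. The shTOX arrays stood highest and the untransduced array lowest in each line, with a difference of 0.96 ± 0.14 for transduced over untransduced cells (adjusted p = 0.00469). KIF4B, an intronless near copy of KIF4A whose probes may read KIF4A transcript, had 8.05, 7.83 and 7.72 in CCRF-CEM, against 7.05 untransduced, and 7.49, 7.63 and 7.55 in HPB-ALL, against 6.92 untransduced. Its difference of 0.72 ± 0.13 (adjusted p = 0.00932) is therefore uncertain as a measure of KIF4B itself. KIF11, the motor that pushes the spindle poles apart, had 11.28 (shTOX-1), 11.43 (shTOX-2) and 11.19 (scramble) in CCRF-CEM, against 10.30 untransduced. Levels in HPB-ALL were 11.14, 11.26 and 10.88, against 10.35 untransduced. Its 6 transduced arrays were all above both untransduced ones, with a difference of 0.87 ± 0.14 (adjusted p = 0.00738).

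KIF23, the motor subunit of centralspindlin, had 9.57 (shTOX-1), 9.86 (shTOX-2) and 9.68 (scramble) in CCRF-CEM, against 8.88 untransduced. In HPB-ALL it had 9.68, 10.03 and 9.52, against 8.73 untransduced. Both lines again showed no overlap, and the difference was 0.92 ± 0.15 (adjusted p = 0.00838). KIF20B, a motor of late cytokinesis, had 9.01, 9.33 and 9.27 in transduced CCRF-CEM (shTOX-1, shTOX-2, scramble), against 8.39 untransduced, and 9.28, 9.34 and 8.90 in transduced HPB-ALL, against 8.48 untransduced. Its difference was 0.75 ± 0.15 (adjusted p = 0.0148). KIFC1, the minus-end motor that focuses spindle poles and clusters extra centrosomes, had 9.12, 9.41 and 9.23 in CCRF-CEM, against 8.55 untransduced, and 9.0, 9.29 and 9.14 in HPB-ALL, against 8.48 untransduced. It differed by 0.68 ± 0.13 (adjusted p = 0.0115), and 2 of its 4 probe sets held identical values. KIF18B, which shortens astral microtubules, had 9.72, 9.84 and 9.63 in CCRF-CEM, against 8.97 untransduced, and 9.22, 9.69 and 9.40 in HPB-ALL, against 8.88 untransduced. Its difference was 0.66 ± 0.14 (adjusted p = 0.0189).

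KIF2C, the centromeric depolymerase that removes wrong chromosome attachments, was the called mitotic member nearest to the threshold. It had 9.74 (shTOX-1), 9.47 (shTOX-2) and 9.40 (scramble) in CCRF-CEM, against 8.90 untransduced. Its HPB-ALL levels were 9.03, 9.31 and 9.18, against 8.83 untransduced. The difference of 0.49 ± 0.14 (adjusted p = 0.0499) lost its call with all genes tested (adjusted p = 0.064), with the construct as a block shared by the lines (adjusted p = 0.0747), with quantile normalization (adjusted p = 0.056) and with probe sets averaged (adjusted p = 0.0508), and without CCRF-CEM scramble, CCRF-CEM shTOX-1, CCRF-CEM shTOX-2, HPB-ALL scramble, HPB-ALL shTOX-2 or either untransduced array (adjusted p between 0.0573 and 0.435). KIF15, which can stand in for KIF11, and KIF22, a chromokinesin that pushes chromosome arms outward, were not called: 0.33 ± 0.12 (adjusted p = 0.0908) and 0.42 ± 0.13 (adjusted p = 0.0623). Both were called when the spread estimate followed the level of a gene, eBayes with trend (adjusted p = 0.0486 for KIF15 and 0.0364 for KIF22), and KIF22 also with the filter at the 60th percentile (0.042). All 13 tested mitotic kinesins had every transduced array of a line above the untransduced array of that line, and this held in both lines; 20.5% of tested genes did so. Of the tested kinesins as a whole, 18 did, and KIF27, KIF3A and KIFC2 had every transduced array below, as had 16.7% of tested genes.

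**Figure D1:**
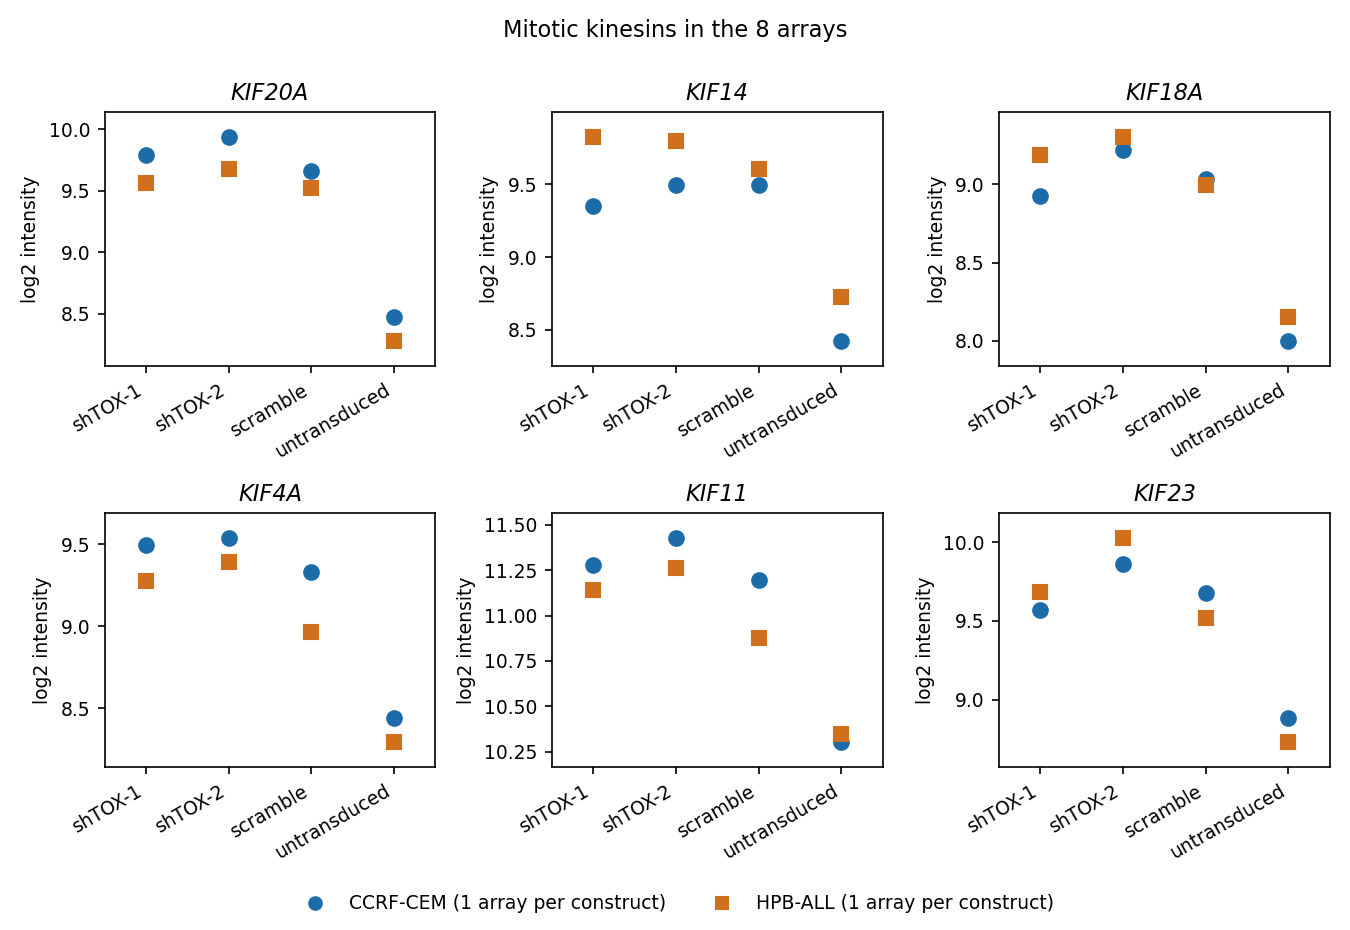
Levels of 6 mitotic kinesins (log2 intensity, vertical axes, each panel with its own range) by construct, with circles for CCRF-CEM and squares for HPB-ALL, 1 array per point. In every panel the untransduced arrays lie below the shTOX-1, shTOX-2 and scramble arrays of the same line; KIF20A, for example, was at 9.52 or more in the transduced arrays, against 8.47 and 8.28 in the untransduced ones.

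These calls lean on both untransduced arrays. Without the untransduced CCRF-CEM array, 1 kinesin, KIF20A, was called, and 12 genes in all. Without the untransduced HPB-ALL array, 6 kinesins were called, namely KIF11, KIF14, KIF18A, KIF20A, KIF4A and KIF4B, and 307 genes in all. Within CCRF-CEM the KIF20A difference was 1.33 ± 0.18 (adjusted p = 0.00864), and within HPB-ALL it was 1.31 ± 0.18 (adjusted p = 0.0379), each against a lone untransduced array taken to vary as the other arrays do. The difference between the lines of these differences was called for 0 kinesins and for 0.0672% of tested genes (6 genes); at an unadjusted p under 0.05 there were 0 kinesins and 4.76% of genes.

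Genes that work with the mitotic kinesins moved alongside them. Of 25 tested mitotic partners, 21 were called higher in transduced than in untransduced arrays and 0 lower, with a median difference of 0.69. Over all tested genes, 5.97% were called higher and 5.05% lower, with a median of 0.03. CCNB1, cyclin B1, differed by 1.27 ± 0.17, and BIRC5, the survivin subunit of the passenger complex that KIF20A carries, by 1.15 ± 0.14 (adjusted p = 0.00329 and 0.00304). HMMR, a spindle assembly factor, differed by 1.07 ± 0.13 and the checkpoint kinase BUB1 by 1.00 ± 0.11. ECT2, which centralspindlin brings to the cell equator, differed by 0.81 ± 0.11. Of 20 tested S phase genes, 13 were called higher, among them CLSPN (1.08 ± 0.20) and MCM2 (0.80 ± 0.13), with a median of 0.60. Of 21 tested cell cycle regulators, 4 were called higher: CCNE1 (1.59 ± 0.32), MYBL2, which encodes B-MYB (0.86 ± 0.14), FOXM1 (0.79 ± 0.13) and TFDP1 (0.46 ± 0.13). The other 17 regulators were not called, 5 of the 21 differences were negative, and the median was 0.12. FOXM1 had 9.81, 9.82 and 9.79 in transduced CCRF-CEM (shTOX-1, shTOX-2, scramble), against 8.82 untransduced, and 9.41, 9.38 and 9.18 in transduced HPB-ALL, against 8.74 untransduced. Transport partners (kinesin light chains, dynactin and cargo adaptors) had 0 of 21 called and a median of -0.07. At an unadjusted p under 0.05 there were 3 of them, where 28.3% of tested genes were.

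Markers of other cell types were mostly near or below the filter: 1 of 3 measured B cell markers passed it, 2 of 6 myeloid, 2 of 4 NK cell and 2 of 4 fibroblast or epithelial markers, with no erythroid marker measured. The highest by mean were NKG7 (between 7.31 and 8.99) and KRT18 (between 6.95 and 7.94). MPO varied within HPB-ALL, with 5.10 (shTOX-1), 7.94 (shTOX-2) and 7.03 (scramble), against 4.83 untransduced. In CCRF-CEM it was between 4.47 and 5.45. None of these markers of other cell types was called between transduced and untransduced arrays. Their summed unlogged intensity ran between 81.2 and 102 in transduced and between 84.7 and 86.7 in untransduced arrays for B cell markers, and between 132 and 404 in transduced and 136 and 151 in untransduced arrays for myeloid ones. For NK cell markers it ran between 262 and 581 in transduced and between 265 and 427 in untransduced arrays, and for fibroblast and epithelial markers between 230 and 277 in transduced and between 265 and 360 in untransduced arrays. Among T lineage markers, 2 of 16 tested were called lower in transduced cells, PTCRA (-1.63 ± 0.41) and RAG2 (-0.73 ± 0.20), both averaged over the lines. The share called was 12.5%, against 11% of all tested genes. However, 15 of the 16 differences were negative, with a median of -0.45, against 0.03 over all tested genes. Relative to the untransduced array, the median marker was at -0.62 (shTOX-1), -0.70 (shTOX-2) and -0.76 (scramble) in CCRF-CEM. In HPB-ALL it was at -0.30, -0.29 and -0.06 in the same order. The part of these markers in the kinesin differences was not tested.

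Outside mitosis, a single kinesin was called between transduced and untransduced cells, and it was lower. KIF27, a relative of KIF7 needed for motile cilia in mice, had 6.02 (shTOX-1), 6.24 (shTOX-2) and 6.66 (scramble) in CCRF-CEM, against 6.93 untransduced. HPB-ALL cells had 6.72, 6.58 and 6.54, against 7.44 untransduced, so the transduced arrays of both lines lay below their untransduced array. The difference was -0.72 ± 0.16, a level 1.65-fold lower (adjusted p = 0.0222), and it was not called without either untransduced array (adjusted p = 0.156 without CCRF-CEM, 0.181 without HPB-ALL). KIF27 rests on its brightest probe set, since its 2 others stayed between 2.46 and 3.26 in all arrays. With probe sets averaged, or with the filter at the 60th percentile, KIF27 was below the filter and was not tested. Transport kinesins had 0 of 9 called and 3 at an unadjusted p under 0.05, where 28.3% of tested genes were, and their median difference was 0.23. The nearest to the threshold were KIF13B, a vesicle motor (0.36 ± 0.11, adjusted p = 0.0663, or 0.0438 and called with the filter at the 60th percentile), and KIFC2 (-0.40 ± 0.14, adjusted p = 0.0992). Among other members, KIF2A, a depolymerase related to KIF2C, differed by 0.08 ± 0.14, with a 95% confidence interval between -0.23 and 0.39.

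**Figure D2:**
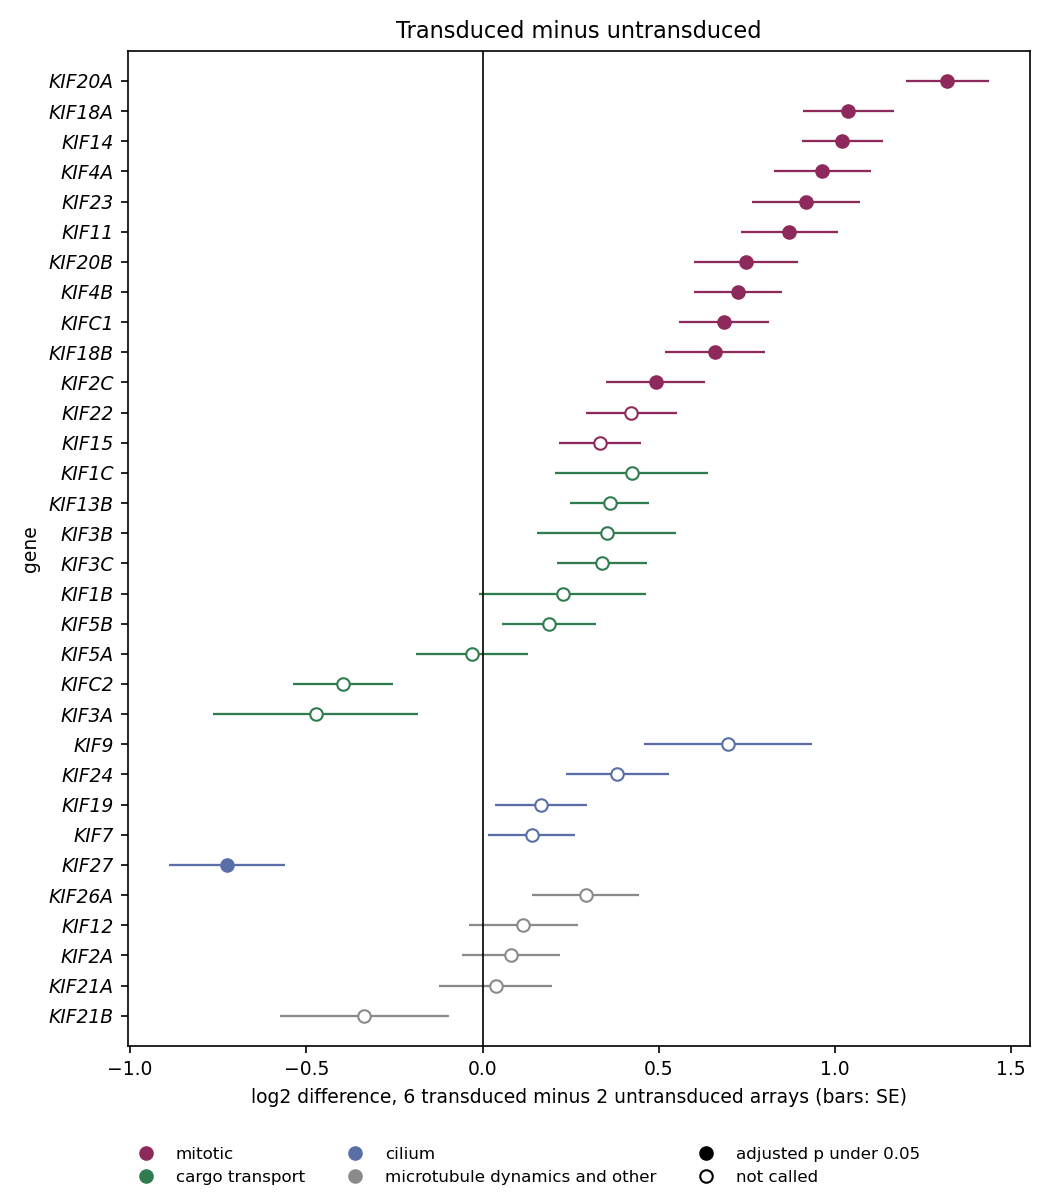
Log2 difference, 6 transduced minus 2 untransduced arrays (horizontal axis), for the 32 tested kinesins grouped by role; bars are SE and filled points have an adjusted p under 0.05. All 13 mitotic members lie to the right of 0, between 0.33 and 1.32, and KIF27 (-0.72) is the filled point to the left.

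The shTOX and the scramble arrays were also set against the untransduced arrays separately; the 2 comparisons share the untransduced arrays. Between shTOX and untransduced arrays 12 kinesins were called higher and 1 lower, where 11.8% of tested genes were called (6.18% higher and 5.64% lower). Of the 12, 10 were mitotic, and the median over the 13 tested mitotic members was 0.80. KIF20A differed by 1.37 ± 0.12, KIF18A by 1.08 ± 0.14, KIF4A by 1.06 ± 0.12 and KIF14 by 1.04 ± 0.13. Between scramble and untransduced arrays the same 4 genes were the only kinesins called, all higher, where 1.06% of tested genes were called (0.582% higher). KIF20A differed there by 1.22 ± 0.14 (adjusted p = 0.0145), KIF14 by 0.97 ± 0.15 (adjusted p = 0.0319), KIF18A by 0.94 ± 0.16 (adjusted p = 0.0343) and KIF4A by 0.78 ± 0.14 (adjusted p = 0.0431). The mitotic median was 0.67 in that comparison, and 12 of the 13 had an unadjusted p under 0.05, where 17.5% of tested genes did. By array, the median mitotic kinesin lay above the untransduced array of its line by 0.85 (shTOX-1), 0.93 (shTOX-2) and 0.79 (scramble) in CCRF-CEM, and by 0.79, 0.85 and 0.63 in HPB-ALL.

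The scramble comparison rests on 2 arrays against 2 and its calls moved with single arrays. No kinesin was called without CCRF-CEM scramble, CCRF-CEM shTOX-2, CCRF-CEM untransduced or HPB-ALL scramble, 1 without HPB-ALL shTOX-2 or HPB-ALL untransduced, 2 without HPB-ALL shTOX-1 and 3 without CCRF-CEM shTOX-1. With the construct as a block shared by the lines, 1 kinesin, KIF20A, was called, and with all genes tested KIF4A was not (adjusted p = 0.0505). KIF11 and KIF23 were called in addition with trend (adjusted p = 0.0192 and 0.0391) and with the filter at the 60th percentile (0.0415 and 0.0491). The shTOX count against untransduced arrays fell to 1 kinesin without the untransduced CCRF-CEM array and to 6 without the untransduced HPB-ALL array. Called in addition there were KIF2C with trend (adjusted p = 0.0356), with the 60th percentile (0.0373) and without HPB-ALL shTOX-1 (0.0417), and KIF24 with quantile normalization (0.0472). In the same comparison KIF18B lost its call without CCRF-CEM shTOX-2 (adjusted p = 0.0585) or HPB-ALL shTOX-2 (0.0557). Across all settings that left out 1 array, the mitotic median stayed between 0.74 and 0.89 for shTOX and between 0.59 and 0.82 for scramble against untransduced cells.

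KIF1C and KIF9 were the called members outside the mitotic set that were higher in shTOX than in untransduced arrays. KIF1C, which carries vesicles and integrins towards the cell edge, differed by 0.62 ± 0.15 between shTOX and untransduced arrays (adjusted p = 0.0273). The KIF1C call was lost when CCRF-CEM shTOX-1 (adjusted p = 0.0623), HPB-ALL shTOX-2 (0.0666), or the untransduced array of CCRF-CEM (0.185) or of HPB-ALL (0.138) was left out. KIF9, a motor of motile cilia and sperm tails in mice, had 5.40 (shTOX-1), 5.19 (shTOX-2) and 5.49 (scramble) in CCRF-CEM, against 4.78 untransduced. Levels in HPB-ALL were 5.92 (shTOX-1) and 5.84 (shTOX-2), against 4.90 in scramble and 4.75 in untransduced cells. Its scramble array went with the shTOX arrays in CCRF-CEM and with the untransduced array in HPB-ALL, and 3 of the 8 levels were below the filter level. KIF9 differed by 0.83 ± 0.23 between shTOX and untransduced arrays (adjusted p = 0.0477), a call lost with all genes tested (0.0728), with quantile normalization (0.0547) and with the construct as a block (0.0655). It was also lost without CCRF-CEM shTOX-1 (0.0738), HPB-ALL shTOX-1 (0.0892) or shTOX-2 (0.0997), or the untransduced array of CCRF-CEM (0.19) or of HPB-ALL (0.242).

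Between shTOX and scramble arrays, which share transduction and selection, 0 kinesins and 0 genes were called by limma. At an unadjusted p under 0.05 there were 459 genes, 5.14% of those tested, and 2 of them were kinesins. Mitotic kinesins differed little: 12 of 13 differences were positive, all were between -0.14 (KIF22) and 0.28 (KIF4A), and the median was 0.11, against 0.02 over all tested genes. The 95% confidence interval ran between -0.12 and 0.43 for KIF20A, between -0.22 and 0.36 for KIF14 and between -0.06 and 0.54 for KIF11. Set against the scramble array of its line, the median mitotic kinesin was at -0.09 (shTOX-1) and 0.18 (shTOX-2) in CCRF-CEM, and at 0.04 (shTOX-1) and 0.19 (shTOX-2) in HPB-ALL.

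The members with the largest shTOX and scramble differences were transport motors. KIF1C had 7.32 (shTOX-1) and 6.94 (shTOX-2) in CCRF-CEM, against 6.55 in scramble and 6.52 in untransduced cells. In HPB-ALL it had 8.08 (shTOX-1) and 8.30 (shTOX-2), against 7.58 in scramble and 7.55 in untransduced cells. Both shTOX arrays were above both controls in each line, and the scramble and untransduced arrays lay close together. The difference from scramble was 0.59 ± 0.15 (unadjusted p = 0.0025, adjusted p = 0.899) and that from both controls 0.61 ± 0.12 (adjusted p = 0.283), the 15th smallest p of all genes there. KIF1B, a motor of mitochondria and synaptic vesicle precursors, had 6.47 (shTOX-1) and 5.91 (shTOX-2) in CCRF-CEM, against 6.93 in scramble and 6.03 in untransduced cells. Its HPB-ALL levels were 7.39 (shTOX-1) and 7.47 (shTOX-2), against 7.86 in scramble and 7.53 in untransduced cells. Its shTOX arrays were below scramble in both lines, but the scramble arrays were the highest of each line. KIF1B differed from scramble by -0.58 ± 0.18 (unadjusted p = 0.0101, adjusted p = 0.93), and its second, dimmer probe set did not follow this order in CCRF-CEM, where it read 5.91 (shTOX-1) and 5.78 (shTOX-2), against 5.49 in scramble cells.

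KIF3A and KIF3B are the paired motor subunits of heterotrimeric kinesin-2. KIF3A had 7.83 (shTOX-1) and 6.92 (shTOX-2) in CCRF-CEM, against 8.19 in scramble and 8.27 in untransduced cells. HPB-ALL cells had 8.31 (shTOX-1) and 7.62 (shTOX-2), against 8.06 in scramble and 8.32 in untransduced cells. KIF3A was lowest with shTOX-2 in both lines, whereas with shTOX-1 it overlapped the controls in HPB-ALL. KIF3B had 6.86 (shTOX-1) and 7.23 (shTOX-2) in CCRF-CEM, against 7.07 in scramble and 7.0 in untransduced cells. Levels in HPB-ALL were 8.26 (shTOX-1) and 8.13 (shTOX-2), against 7.61 in scramble and 7.35 in untransduced cells, so that it stood above the controls with both hairpins in HPB-ALL and overlapped them in CCRF-CEM. Against scramble the differences were -0.45 ± 0.29 for KIF3A, 0.28 ± 0.20 for KIF3B, 0.40 ± 0.23 for KIF9 and 0.28 ± 0.12 for KIF4A, none called (adjusted p between 0.93 and 0.935). The KIF9 difference turned to -0.09 without the HPB-ALL scramble array and was 0.88 without the CCRF-CEM one. Without the HPB-ALL scramble array the differences were -0.72 for KIF3A, 0.10 for KIF3B and 0.18 for KIF4A, and without the CCRF-CEM one they were -0.19 for KIF3A, 0.45 for KIF3B and -0.38 for KIF1B.

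**Figure D3:**
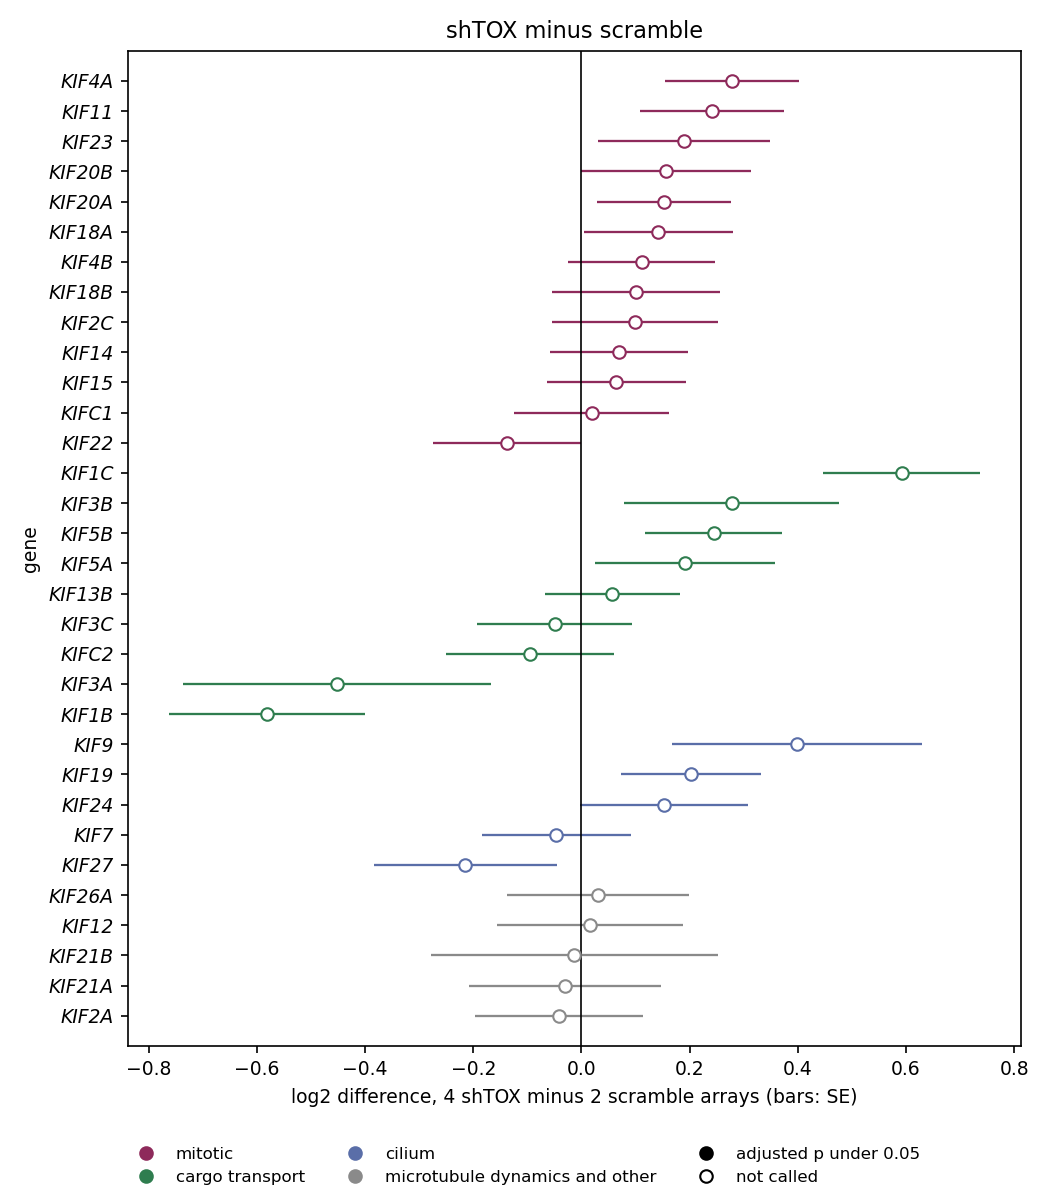
Log2 difference, 4 shTOX minus 2 scramble arrays (horizontal axis), for the 32 tested kinesins grouped by role; bars are SE and every point is open because no adjusted p was under 0.05. The mitotic members lie between -0.14 and 0.28, and the transport members spread between KIF1B (-0.58) and KIF1C (0.59).

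**Figure D4:**
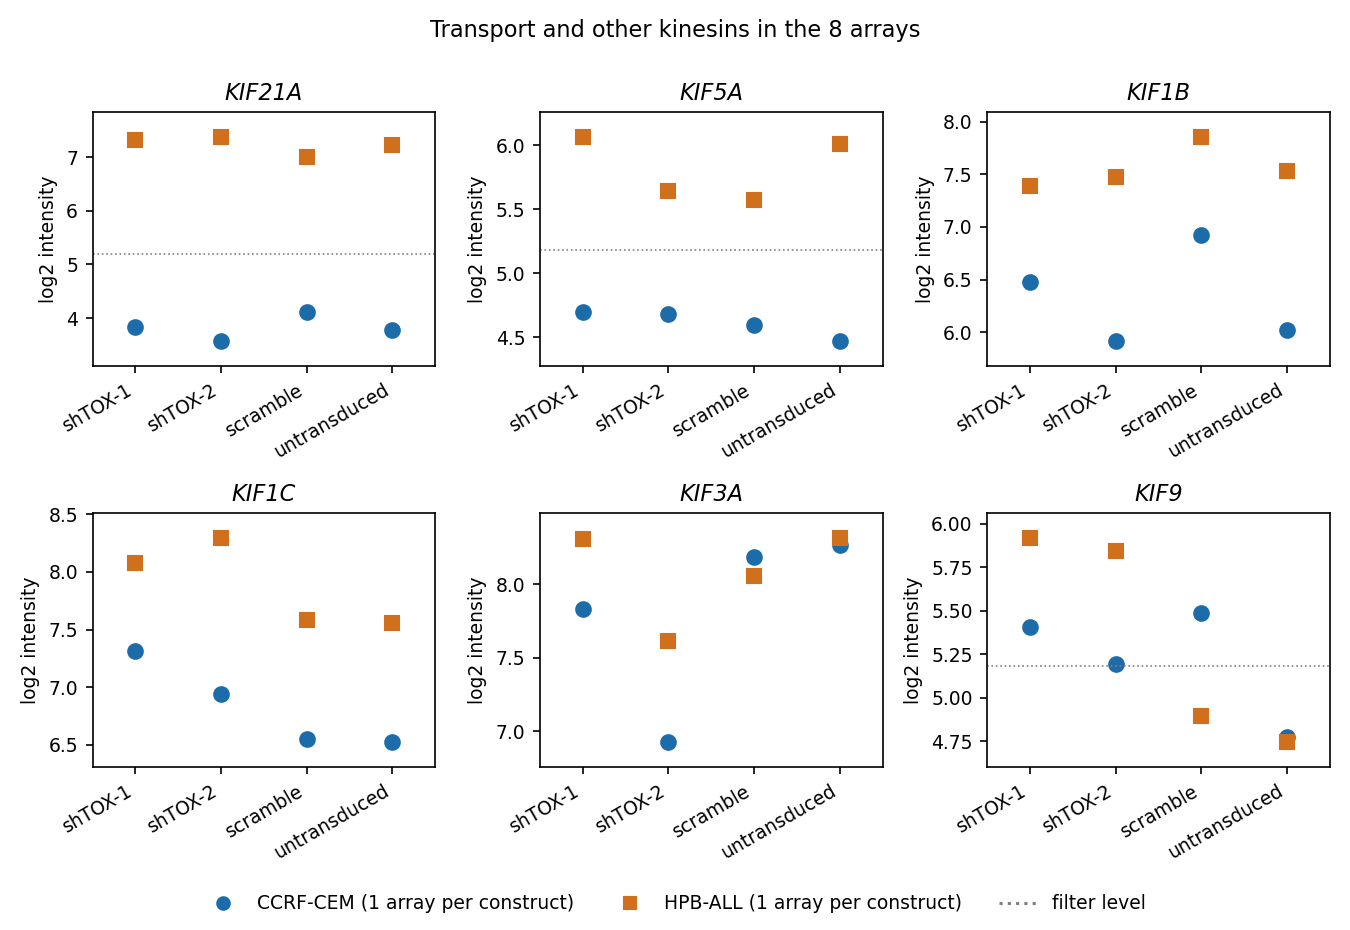
Levels of KIF21A, KIF5A, KIF1B, KIF1C, KIF3A and KIF9 (log2 intensity, vertical axes, each panel with its own range) by construct, with circles for CCRF-CEM and squares for HPB-ALL, 1 array per point and a dotted line at the filter level of 5.18. KIF21A is below that level in every CCRF-CEM array, KIF1C is highest with the shTOX hairpins in both lines, and KIF3A is lowest with shTOX-2 in both lines.

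Set against scramble and untransduced arrays together, as the design of the series pairs them, shTOX again gave 0 called genes with limma; 1277 genes (14.3%) and 13 kinesins had an unadjusted p under 0.05. The largest kinesin differences were those of KIF20A (0.76 ± 0.29), KIF4A (0.67 ± 0.20), KIF18A (0.61 ± 0.24), KIF9 (0.61 ± 0.21), KIF1C (0.61 ± 0.12) and KIF11 (0.60 ± 0.19), with adjusted p between 0.283 and 0.32. The mitotic median was 0.48, against 0.03 over all tested genes, and it contains the untransduced arrays described above: against scramble alone it was 0.11. Both shTOX arrays were above both control arrays in each line for 6 kinesins, KIF11, KIF19, KIF1C, KIF20A, KIF4A and KIF5B, and below for 0, where 6.36% of tested genes were above and 4.99% below. KIF5B, the ubiquitous conventional kinesin, had 11.56 (shTOX-1) and 11.49 (shTOX-2) in CCRF-CEM, against 11.37 in scramble and 11.30 in untransduced cells, and 11.42 and 11.23 in HPB-ALL, against 10.99 and 11.01. With the construct as a block shared by the lines, KIF20A alone of the kinesins was called (0.76 ± 0.10, adjusted p = 0.0375), with 16 genes in all. That fit gave each construct its own term. The gap between scramble and untransduced arrays thus left the SE but stayed in the difference. Against scramble alone, the same fit called 0 kinesins.

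The hairpins were compared with each other because TOX was lower with shTOX-2 (a difference of -1.10 ± 0.20). No gene was called (TOX itself had an adjusted p of 0.402), and 381 genes (4.27%) had an unadjusted p under 0.05. KIF3A differed between shTOX-2 and shTOX-1 by -0.80 ± 0.22 (unadjusted p = 0.00591, adjusted p = 0.9999). KIF21B, which limits microtubule growth in T cells, had 8.39 with shTOX-2 and 7.51 with shTOX-1 in CCRF-CEM, where scramble had 8.11 and untransduced cells 8.70. In HPB-ALL it had 9.03 with shTOX-2 and 8.57 with shTOX-1, where scramble had 8.66 and untransduced cells 8.73, and the hairpin difference was 0.67 ± 0.25 (unadjusted p = 0.0269). The next by size were KIF23 (0.32 ± 0.31), KIF2A (-0.30 ± 0.16), KIFC1 (0.29 ± 0.27) and KIF12 (0.29 ± 0.19), none with an unadjusted p under 0.05. Of the 13 tested mitotic members, 12 had a positive and 1 a negative difference. Their median was 0.18, against -0.04 over all tested genes. This fit pools scramble with untransduced arrays, so the difference between these controls in mitotic kinesins widens the SE of those members.

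Between the lines, calls fell mainly on transport kinesins, and 1 mitotic member was called. In CCRF-CEM compared with HPB-ALL, 6 kinesins were called lower and 3 higher, 28.1% of those tested, where 27.4% of all tested genes were called, 14.9% lower and 12.4% higher; as a superfamily the kinesins were thus near the background. By role, 5 of 9 transport members were called lower and 0 higher, with a median difference of -0.79, against -0.01 over all tested genes. KIF5A, 1 of the 5, passed the filter through HPB-ALL alone, which fixed its direction; among the 8 other transport members 4 were called lower, with a median of -0.53. Of 13 mitotic members 1 was called, and their median was 0.21, or -0.02 without CCRF-CEM scramble. Scramble and untransduced arrays formed 1 control group in this fit, so their difference in mitotic kinesins widened the SE of the mitotic members. The same 9 genes had no overlap between the 4 CCRF-CEM and the 4 HPB-ALL arrays, as had 14.2% of tested genes in the lower and 12.8% in the higher direction. Of these 9, KIF21A passed the filter in the same way as KIF5A, which fixed the direction of both and favoured a lack of overlap. Without the genes that passed through 1 line alone, 3 of 30 kinesins were called higher and 4 lower (10% and 13.3%). Among all remaining genes, 11.1% were called higher and 14.5% lower.

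KIF21A, which curbs microtubule growth at the cell cortex, had 3.84 (shTOX-1), 3.56 (shTOX-2), 4.11 (scramble) and 3.78 (untransduced) in CCRF-CEM. Its HPB-ALL levels were 7.32, 7.38, 7.01 and 7.22 in the same order. All CCRF-CEM levels were below the filter level, so the gene passed through HPB-ALL alone, and the fitted difference of -3.41 ± 0.15 (adjusted p = 1.25e-07) depends on the background of the arrays. KIF5A, a conventional kinesin known mainly from neurons, had 4.70, 4.68, 4.59 and 4.47 in CCRF-CEM (shTOX-1, shTOX-2, scramble, untransduced), against 6.07, 5.64, 5.57 and 6.01 in HPB-ALL. It too was below the filter level throughout CCRF-CEM, and its difference was -1.21 ± 0.14 (adjusted p = 0.000132). Both could only have passed the filter by being higher in HPB-ALL.

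The other called transport members were measured above the filter level in both lines. KIF1B averaged 6.33 in CCRF-CEM and 7.56 in HPB-ALL, a difference of -1.23 ± 0.20 (adjusted p = 0.00136), and its highest CCRF-CEM array, 6.93 with scramble, was below its lowest HPB-ALL array, 7.39 with shTOX-1. The second, dimmer probe set of KIF1B did not show this difference. It read between 5.21 and 5.91 in CCRF-CEM arrays and between 5.24 and 5.57 in HPB-ALL arrays. With probe sets averaged, KIF1B was still called. KIF1C averaged 6.83 in CCRF-CEM and 7.88 in HPB-ALL, a difference of -1.04 ± 0.12 (adjusted p = 0.00013), with no overlap. KIFC2, a minus-end motor of neuronal transport in mice, had 6.01 (shTOX-1), 6.35 (shTOX-2), 6.38 (scramble) and 6.84 (untransduced) in CCRF-CEM, against 7.29, 7.27, 7.27 and 7.47 in HPB-ALL. Its difference was -0.93 ± 0.15 (adjusted p = 0.00115), and its untransduced array was the highest in each line. KIF3B averaged 7.04 in CCRF-CEM and 7.84 in HPB-ALL, a difference of -0.79 ± 0.17 (adjusted p = 0.00553), and its nearest arrays, 7.23 (CCRF-CEM shTOX-2) and 7.35 (HPB-ALL untransduced), almost met. KIF3A, the partner of KIF3B, differed by -0.27 ± 0.23 and was not called (95% confidence interval between -0.79 and 0.24).

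KIF22 was the mitotic member called between the lines. It had 10.15 (shTOX-1), 10.32 (shTOX-2), 10.36 (scramble) and 9.93 (untransduced) in CCRF-CEM, against 9.22, 9.51, 9.51 and 8.92 in HPB-ALL, and was higher in CCRF-CEM by 0.90 ± 0.16 (adjusted p = 0.0023). KIF7, a regulator of Hedgehog signalling in the primary cilium, had 6.89, 7.0, 6.91 and 6.68 in CCRF-CEM, against 6.14, 6.41, 6.41 and 6.29 in HPB-ALL. It was higher in CCRF-CEM by 0.55 ± 0.12 (adjusted p = 0.00707). KIF24, which holds back cilium formation at the mother centriole, had 8.11, 8.30, 8.31 and 7.98 in CCRF-CEM, against 7.94, 7.89, 7.50 and 7.27 in HPB-ALL, where 7.94 and 7.98 almost met. Its difference was 0.53 ± 0.14 (adjusted p = 0.0202), and the call was lost without CCRF-CEM scramble (adjusted p = 0.0513), CCRF-CEM shTOX-2 (0.0535) or HPB-ALL untransduced (0.0632). Of the mitotic members described above, KIF20B averaged 9.0 in both lines, and KIF23 differed by 0.01 ± 0.22.

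Each construct was run in both lines, and with the construct as a block 12 kinesins were called between the lines, the 9 above and KIF15, KIF21B and KIF3C. KIF15 had 10.40 (shTOX-1), 10.61 (shTOX-2), 10.49 (scramble) and 10.17 (untransduced) in CCRF-CEM, against 10.10, 10.27, 10.07 and 9.81 in HPB-ALL. It was higher in CCRF-CEM with every construct, although the lines overlapped over all constructs, and its difference of 0.36 had an adjusted p of 0.0606 without the block, 0.0236 with it and 0.0409 with trend. KIF3C, a kinesin-2 motor of neurons, had 8.07, 7.83, 7.87 and 7.54 in CCRF-CEM, against 7.60, 7.35, 7.65 and 7.24 in HPB-ALL, and was the transport member called higher with the block (0.36, adjusted p = 0.0276, against 0.0882 without it). KIF21B was lower in CCRF-CEM with every construct (-0.57, adjusted p = 0.0277 with the block and 0.0863 without it). Without the untransduced CCRF-CEM array and without a block, the same 3 genes were called in addition (adjusted p = 0.0477 for KIF15, 0.0467 for KIF3C and 0.0263 for KIF21B). KIF3C and KIF27 were called in addition without HPB-ALL scramble (0.0355 and 0.0107), and KIF5B with trend (0.0471).

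**Figure D5:**
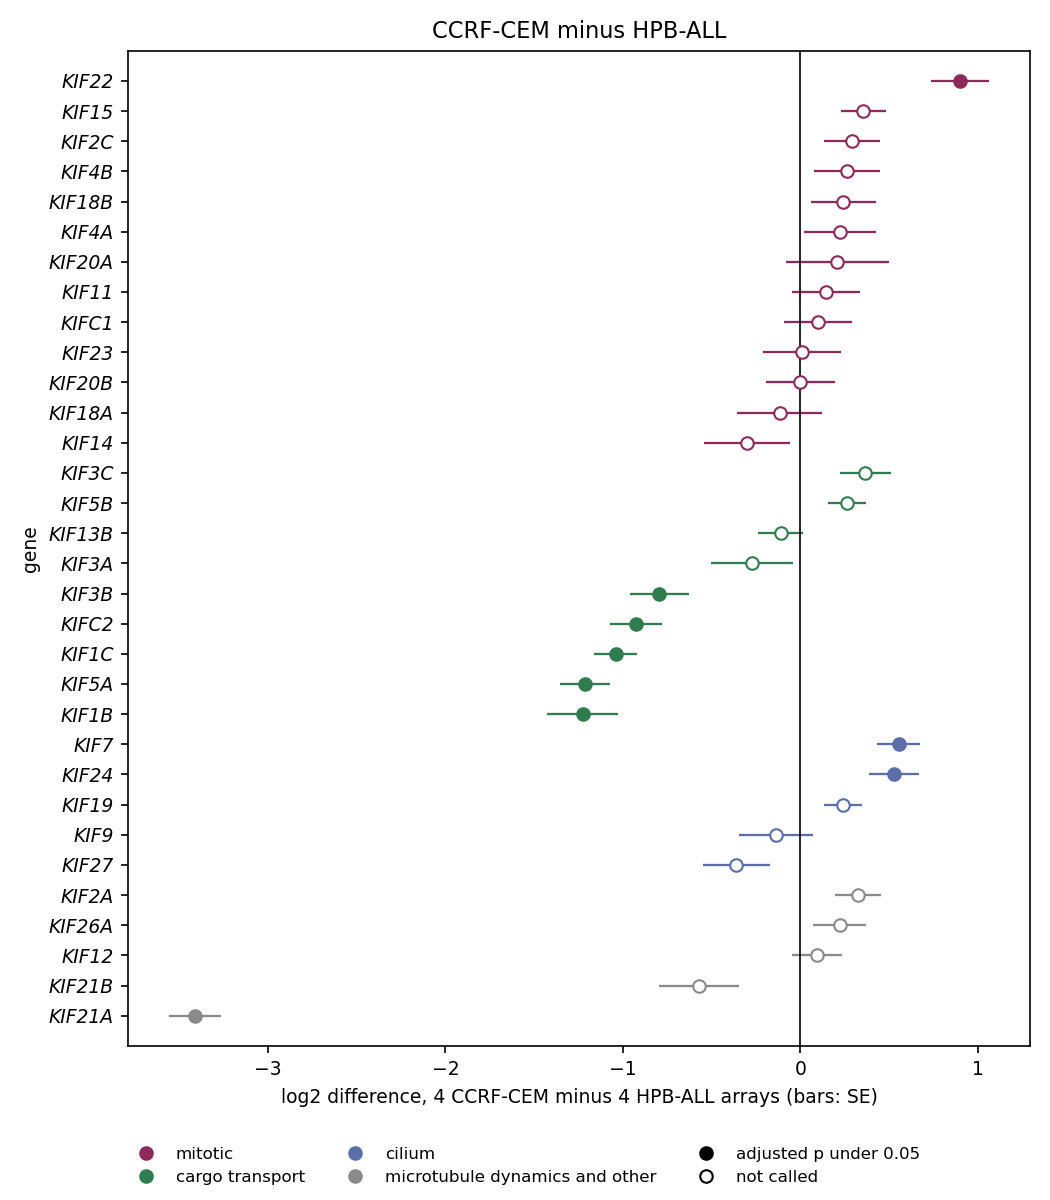
Log2 difference, 4 CCRF-CEM minus 4 HPB-ALL arrays (horizontal axis), for the 32 tested kinesins grouped by role; bars are SE and filled points have an adjusted p under 0.05. Transport members fill the left side with KIF1B (-1.23), KIF5A (-1.21), KIF1C (-1.04), KIFC2 (-0.93) and KIF3B (-0.79), KIF21A stands apart at -3.41, and KIF22 is the filled mitotic point at 0.90.

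Among 21 tested transport partners, 4 were called higher and 2 lower in CCRF-CEM than in HPB-ALL, which is 28.6% called and near the 27.4% of all tested genes. KIFBP, which binds the motor domains of several kinesins and keeps them off microtubules, had 8.81 (shTOX-1), 8.42 (shTOX-2), 8.77 (scramble) and 8.31 (untransduced) in CCRF-CEM, against 5.84, 5.16, 5.04 and 4.33 in HPB-ALL. It was higher in CCRF-CEM by 3.49 ± 0.24 (adjusted p = 3.09e-06), although 3 of its HPB-ALL levels were below the filter level. MADD, an adaptor through which KIF1B binds vesicles, was lower in CCRF-CEM (-0.72 ± 0.10), and KLC2, a light chain of conventional kinesin, was higher by 0.49 ± 0.15. The lines also differed in lineage markers, 10 of the 12 T lineage markers that did not pass the filter through CCRF-CEM alone being called higher there, with LCK at 2.40 ± 0.13. Among all genes that did not pass through 1 line alone, 11.1% were called higher in CCRF-CEM. The part of these differences in the kinesin levels was not tested.

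The shTOX difference itself was compared between the lines as an interaction. No kinesin and no gene was called, and 4.59% of genes and 2 kinesins had an unadjusted p under 0.05. KIF9 (-0.89 ± 0.33) and KIF3B (-0.70 ± 0.26) were those 2, both with a smaller shTOX difference in CCRF-CEM than in HPB-ALL and an adjusted p of 0.973. Within the lines, KIF9 differed between shTOX and control arrays by 0.17 ± 0.23 in CCRF-CEM and by 1.06 ± 0.23 in HPB-ALL, and KIF3B by 0.01 ± 0.18 in CCRF-CEM and by 0.71 ± 0.18 in HPB-ALL. KIF1C differed by 0.59 ± 0.18 in CCRF-CEM and by 0.62 ± 0.18 in HPB-ALL, and KIF20A by 0.80 ± 0.44 and 0.72 ± 0.44 in the same order. Next by size in the interaction came KIF3A (-0.62 ± 0.45), KIF21B (-0.56 ± 0.44), KIF21A (-0.47 ± 0.26) and KIF24 (-0.47 ± 0.25). For the transduced difference the largest interactions were those of KIF21B (-0.71 ± 0.44), KIF3B (-0.59 ± 0.37), KIF5A (0.44 ± 0.30), KIFC2 (-0.41 ± 0.27), KIF12 (-0.38 ± 0.30) and KIF1B (0.37 ± 0.48), none with an unadjusted p under 0.05.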

How the data were processed

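The authors deposited log2 intensities by probe set, a unit taken from the range and shape of the values. Their software, background correction and normalization were not given in the sources used here. Each of the 8 arrays held 53617 probe sets, with medians between 4.62 and 4.71 and correlations of 0.949 or more within a line. No 2 arrays were identical. The number of arrays limits the precision. Probe sets with 1 symbol in the platform annotation, 16098 in all, gave 14884 genes; 37519 carried no symbol and were left out. The brightest probe set stood for a gene. All fits used lmFit, contrasts.fit and eBayes without trend from limma (version 3.58.1, under R 4.3.3) on all 8 arrays, with line as a term. P-values were adjusted over all 8930 tested genes. The main fit of each comparison was also run on simulated data with independent noise. Fits with a block, with trend or within a line were not. The fits of the hairpins, of the lines and of shTOX against both controls hold scramble and untransduced arrays as 1 control group. In interactions a mean was fitted for each line and state. The shared numbers 1 and 2 name hairpins, not paired samples.

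Members, role lists, partner lists and marker lists were chosen with earlier results of these data known. Named were members called in any comparison, or else the 6 with the largest difference; from other lists up to 6 called members, or else up to 4. Alternatives changed the filter, the probe set rule, the normalization, the spread estimate, the block and the arrays used. Promoters came from RefSeq tables of GRCh38.p14, the build those tables name.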

Additional observations from a re-analysis of the deposited data

Results flagged for a closer look

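In 64 groups of 4 arrays, 1 per tested kinesin and line, 3 had an array farther from its neighbours than Dixon's limit for 4 values allows; chance alone marks about 1 group in 20. In each case it was the untransduced array. KIF14 was at 9.35 or more in the transduced CCRF-CEM arrays, against 8.42 in untransduced CCRF-CEM. KIF20A was at 9.52 or more in the transduced HPB-ALL arrays, against 8.28 in untransduced HPB-ALL. KIFC2 was at 7.29 or less in the transduced HPB-ALL arrays, against 7.47 in untransduced HPB-ALL.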

How the results depend on the processing

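With no replicates of a construct within a line, every test borrows its spread across lines and constructs, and levels near the background hold only bounds. Leaving out single arrays gave the following ranges of called genes. Against both controls, shTOX had 0 to 4 genes in all (4 without CCRF-CEM scramble, 1 without HPB-ALL scramble) and 0 kinesins. Against untransduced arrays, shTOX had 1 to 13 kinesins and 25 to 1080 genes, scramble 0 to 3 kinesins and 3 to 90 genes, and transduced cells 1 to 12 kinesins and 12 to 1095 genes. Between CCRF-CEM and HPB-ALL, 8 to 12 kinesins and 1817 to 2471 genes were called. The line difference of the shTOX difference had 0 to 8 genes and a mitotic median between -0.43 and 0.38, and that of the transduced difference 4 to 9 genes. The mitotic median of scramble against untransduced arrays lay between 0.59 and 0.82. The KIF9 difference between shTOX and scramble ran between -0.085 and 0.88; it reversed when the scramble array of HPB-ALL was left out and was highest without that of CCRF-CEM.

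The construct as a replicate block shared by both lines (shTOX-1, shTOX-2, scramble, untransduced) gave 1 kinesin and 16 genes for shTOX against both controls and 1 kinesin and 9 genes for scramble against untransduced arrays. For shTOX against scramble alone it gave 0 kinesins. The numbers 1 and 2 name hairpins, and the shTOX-2 minus shTOX-1 differences of the lines correlated at 0.225 across 8930 genes, a description of 2 pairs. Scramble against untransduced arrays had 162 genes with the filter at the 60th percentile and 182 with a trend in the spread estimate. The line difference of the transduced difference had 12 genes without a filter and 0 at the 60th percentile, where fewer genes were tested. The cause of the other shifts was not tested. The mitotic median of shTOX against both controls was 0.11 without both untransduced arrays. Chosen after seeing the data, the block was also fitted to the other comparisons: it gave 11 kinesins and 923 genes for transduced against untransduced arrays, with KIF2C lost, and 0 kinesins for the 2 line differences and the hairpins. Between the lines it gave 12 kinesins and 2907 genes.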
